A study of Mus musculus with 6 samples.

Results

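The genes described here encode the machinery of cell division: the kinases and cyclins that bring a cell from G2 into mitosis, the spindle and its motors, the kinetochores that hold chromosomes to it, and the checkpoint that delays their separation. They were chosen by symbol, as the rows of the deposited count table that match a list of 50 names, and all 50 were found among the 20499 genes listed. All 50 also had enough reads to be tested, so no member was lost to the filter on low counts.

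RNA had been sequenced from 6 libraries, 3 labelled shControl and 3 labelled shRNF11. The labels name the cells as AML12, an immortalized hepatocyte line of the mouse, with genotype WT in shControl and RNF11 knockdown, by lentivirus, in shRNF11. RNF11 is a RING-type ubiquitin ligase. Cells of both groups had spent 6 h in 1% oxygen without glucose or serum and were then returned to air in complete medium with 10% serum, insulin, transferrin, selenium and dexamethasone at 40 ng/mL. The labels give no time from reoxygenation to harvest, no hairpin sequence and no word on whether a clone or a pool was used. Nor do they say whether replicates were separate cultures, so each p-value measures spread among 3 libraries a group that could be technical. No library kept in normal oxygen was analysed here. All values therefore compare knockdown with control after hypoxia and reoxygenation, and say nothing of the effect of oxygen itself.

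Library totals ranged from 37485850 to 39045440 reads. RNF11 was 3.32-fold lower in the shRNF11 libraries, whose values did not overlap those of shControl. Although the labels say mouse, the gene names are human: 0 of the 20499 Entrez numbers was in the mouse RefSeq gene table. In the annotation, 6391 genes carried a human pathway term and 0 a mouse one. The species of the sequenced RNA was not tested. Of 18 hepatocyte markers, 4 (ALB, TTR, SERPINA1 and AHSG) were not listed, 13 summed to 0.739 to 1.34 CPM in a library, and CPS1, a urea cycle enzyme, alone reached 1028 CPM in shControl and 1091 CPM in shRNF11. CPM, the usual depth-normalised read count, divides a gene's reads by the library total after that total is scaled by its TMM factor. These markers thus did not bear out the labelled hepatocyte identity, since CPS1 alone was abundant and the rest were near 0 or not listed. Of 7 keratin, vimentin and epithelial markers, KRT7, KRT8, KRT18 and VIM were abundant. The 5 listed ones summed to 4352 to 4466 CPM in shControl and 5224 to 5359 CPM in shRNF11. All 4 that could be tested, the abundant ones, were higher in shRNF11. CDH1 had 29 reads over the 6 libraries, and KRT19 and EPCAM were not listed. Blood, endothelial and fibroblast markers summed to 80.7 to 102.1 CPM in shControl and 68.8 to 93.5 CPM in shRNF11, with PTPRC, CD3E and LYZ not listed. CD68 alone had 49.25 CPM in shControl and 43.46 CPM in shRNF11. Of the 5 tested, CD68 was lower (1.13-fold) and COL1A2 higher (2.68-fold). COL1A2 varied widely within groups, from 16 to 156 reads in shControl and from 16 to 279 in shRNF11, and its groups overlapped. The part of these markers in the results below was not tested.

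As background, cyclin B bound to the kinase CDK1 drives entry into mitosis, and transcription of most genes in this set climbs in G2 under the factors FOXM1 and B-MYB with the MuvB proteins, so their RNA is low in resting cells and high in dividing ones. At the kinetochore, the spindle checkpoint proteins hold back CDC20, the activator of the anaphase-promoting complex (APC/C), until every chromosome is attached. The APC/C then marks cyclin B and securin for destruction, which frees separase to cut the cohesin between sister chromatids. In the adult liver few hepatocytes divide, whereas cultured lines divide steadily.

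Of the 50 mitotic genes, 38 were higher in the shRNF11 cells and 0 were lower, and 12 did not pass the test (edgeR quasi-likelihood test, Benjamini-Hochberg adjusted p under 0.05 over 13489 tested genes). Among all tested genes 17.4% were called higher and 14.7% lower, 32.1% in all. The changes were small: the median log2 fold change of the 50 was 0.21, against -0.0079 over all tested genes, and the range ran from -0.10 for SPC24 to 0.53 for CDC20. By size, 4 of the 38 rose by at least 0.4 on the log2 scale, 25 by 0.2 to 0.4 and 9 by under 0.2. The libraries of the groups did not overlap for 36 of the 50, all 36 higher in shRNF11, beside 42.8% of all tested genes without overlap, 22.0% without overlap and higher, and 20.9% without overlap and lower. Before any TMM factor, with libraries scaled by totals alone, 30 of the 50 were called higher and 1 lower, beside 1335 higher and 3255 lower of all tested genes, in place of 2348 and 1988. No member passed a test against a 1.5-fold change, so none of these differences is shown to exceed that size.

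Summed over the 50 genes, the shControl libraries held 5698, 5534 and 5557 CPM and the shRNF11 libraries 6521, 6376 and 6539 CPM. The mean sum was 1.16 times as high in shRNF11, 6479 ± 89.4 CPM in place of 5596 ± 88.8 CPM (SD over n = 3 in each group), and the groups did not overlap. Before any scaling factor, the same genes took 0.566% to 0.581% of all reads in shControl and 0.621% to 0.641% in shRNF11. The median gene of the set lay 0.23, 0.17 and 0.23 above its shControl mean on the log2 scale in shRNF11 replicates 1, 2 and 3. Replicate 2 was thus the lowest of its group, with 38 of the 50 genes above all shControl libraries, compared with 44 in each of the other two. In bulk RNA, more cells in G2 and mitosis and more RNA of these genes per cell cannot be told apart.

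**Figure D1:**
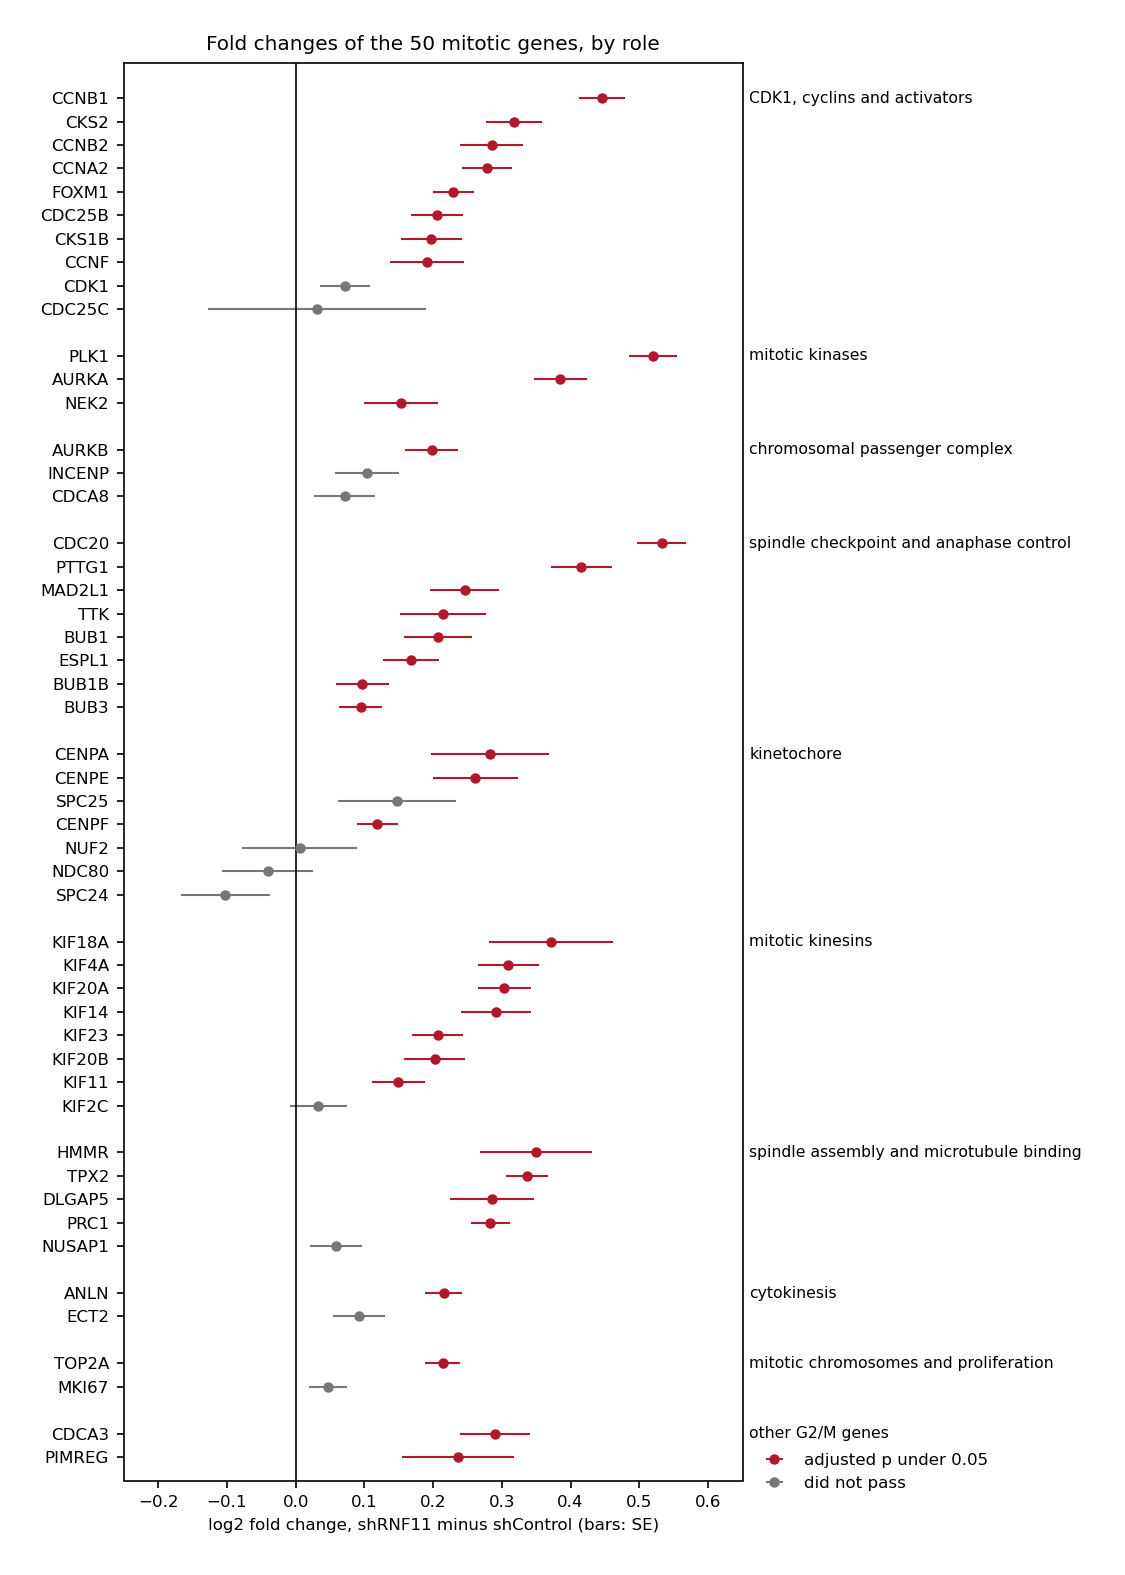
Fold change of each of the 50 mitotic genes (log2, shRNF11 minus shControl; bars are the standard error of the edgeR fit, n = 3 libraries each), sorted within 10 groups by role; red marks an adjusted p under 0.05. The 38 red points all lie to the right of 0, from 0.094 for BUB3 to 0.53 for CDC20, and NDC80 and SPC24 are the members to the left of it.

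Genes of the switch into mitosis were mostly higher, and the kinase at its centre was one of the few that did not pass. Of 10 genes grouped as CDK1, cyclins and activators, with CCNF and FOXM1 among them, 8 rose and 0 fell (median log2 fold change 0.22). CCNB1 (Entrez 891), cyclin B1, stood at 154, 144 and 146 CPM in the shControl libraries and 203, 200.4 and 201 CPM in the shRNF11 libraries. Its 3 shRNF11 libraries lay close together and above every shControl library. The mean was 201 ± 1.47 CPM in shRNF11 and 148 ± 5.78 CPM in shControl (SD over n = 3), 1.36-fold higher (log2 fold change 0.45, SE 0.0336, edgeR adjusted p = 1.22e-15). CDK1 (Entrez 983), the catalytic partner of cyclin B1, stood at 136, 133 and 129 CPM in the shControl libraries and 138, 136 and 145 CPM in the shRNF11 libraries. These groups overlapped, and the difference of 0.072 on the log2 scale (SE 0.036, edgeR adjusted p = 0.123) did not pass. The second B-type cyclin, CCNB2, was 1.22-fold higher, and CCNA2, the cyclin of S phase and early mitosis, 1.21-fold higher. CKS2 and CKS1B, small proteins that dock substrates on cyclin-dependent kinases, were 1.25-fold and 1.15-fold higher. CDC25B, a phosphatase that removes the inhibitory phosphates from CDK1, was 1.15-fold higher. CDC25C, a phosphatase of the same family, had 5.08 ± 1.16 CPM in shControl and 5.19 ± 0.261 CPM in shRNF11 and did not pass (adjusted p = 0.905), at a depth where its standard error was 0.158. FOXM1, the transcription factor of the G2/M genes, was 1.17-fold higher, and CCNF, an F-box protein that selects substrates for ubiquitination in G2, 1.14-fold higher. The call on CCNF was lost with totals alone (adjusted p = 0.0606).

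All 3 kinases that act beside CDK1 were higher (median log2 fold change 0.39). PLK1 (Entrez 5347), polo-like kinase 1, which matures centrosomes and promotes mitotic entry, stood at 123, 123 and 116 CPM in the shControl libraries and 177, 172 and 169.8 CPM in the shRNF11 libraries. Every shRNF11 library exceeded every shControl library by a wide margin relative to the spread within a group. The rise was 1.43-fold (log2 fold change 0.52, SE 0.035, edgeR adjusted p = 2.03e-17). AURKA (Entrez 6790), the Aurora kinase of centrosomes and spindle poles, stood at 96.4, 94.1 and 93.8 CPM in the shControl libraries and 126, 127 and 118 CPM in the shRNF11 libraries. The groups again did not overlap, with replicate 3 the lowest of the shRNF11 libraries, and the rise was 1.31-fold (log2 fold change 0.38, SE 0.0386, edgeR adjusted p = 1.47e-11). NEK2, a kinase that separates centrosomes, was 1.11-fold higher, but its groups overlapped and its adjusted p of 0.0243 rose to 0.142 without shControl replicate 1, 0.162 without shControl replicate 3 and 0.0642 without shRNF11 replicate 1.

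All 8 genes of the spindle checkpoint and of the step it guards, the start of anaphase, were called higher (median log2 fold change 0.21). CDC20 (Entrez 991), the APC/C activator, showed the largest change of the 50 genes and stood at 120.0, 112 and 121 CPM in the shControl libraries and 173, 172 and 166 CPM in the shRNF11 libraries. No shControl library came near the lowest of shRNF11. The mean was 170.3 ± 3.91 CPM in shRNF11 against 118 ± 4.55 CPM in shControl (SD, n = 3 each), 1.45-fold higher (log2 fold change 0.53, SE 0.0357, edgeR adjusted p = 1.64e-17). PTTG1 (Entrez 9232), securin, the inhibitor of separase, stood at 61.6, 58.8 and 58.6 CPM in the shControl libraries and 78.6, 82.4 and 77.9 CPM in the shRNF11 libraries. Its groups were apart, and the rise was 1.33-fold (log2 fold change 0.42, SE 0.0449, edgeR adjusted p = 1.25e-10). PTTG1 has near-identical copies between which reads can be split, and the 1 copy found in the table, PTTG2, had 5 reads in all. ESPL1, separase itself, was 1.12-fold higher, at 86.5 ± 1.23 CPM against 77.0 ± 1.31 CPM. MAD2L1, the checkpoint protein MAD2, was 1.19-fold higher, and the checkpoint kinases TTK and BUB1 were each raised, 1.16-fold and 1.15-fold. BUB1B, which encodes BUBR1, and BUB3 showed the smallest called changes of the set, 1.07-fold and 1.07-fold.

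Several of these calls were lost when 1 library was left out or the scaling was changed. The adjusted p of TTK became 0.15 without shControl replicate 2 and 0.082 without shRNF11 replicate 1, and its groups overlapped. BUB1B, whose groups also overlapped, had an adjusted p of 0.0463 that rose to 0.184 without shControl replicate 2, 0.147 without shControl replicate 3, 0.112 without shRNF11 replicate 1 and 0.103 without shRNF11 replicate 3. For BUB3 it was 0.056 without shControl replicate 1 and 0.0912 without shControl replicate 3. With libraries scaled by their totals alone, the calls on BUB1B (adjusted p = 0.546), BUB3 (0.484), TTK (0.0622) and NEK2 (0.209) were lost. With upper-quartile factors those on NEK2 (0.0511), BUB1B (0.12) and BUB3 (0.06) were lost, and after cyclic loess scaling those on BUB1B (0.288) and BUB3 (0.532). The call on BUB1B was also lost with genes filtered at a mean of 5 CPM (0.0727).

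**Figure D2:**
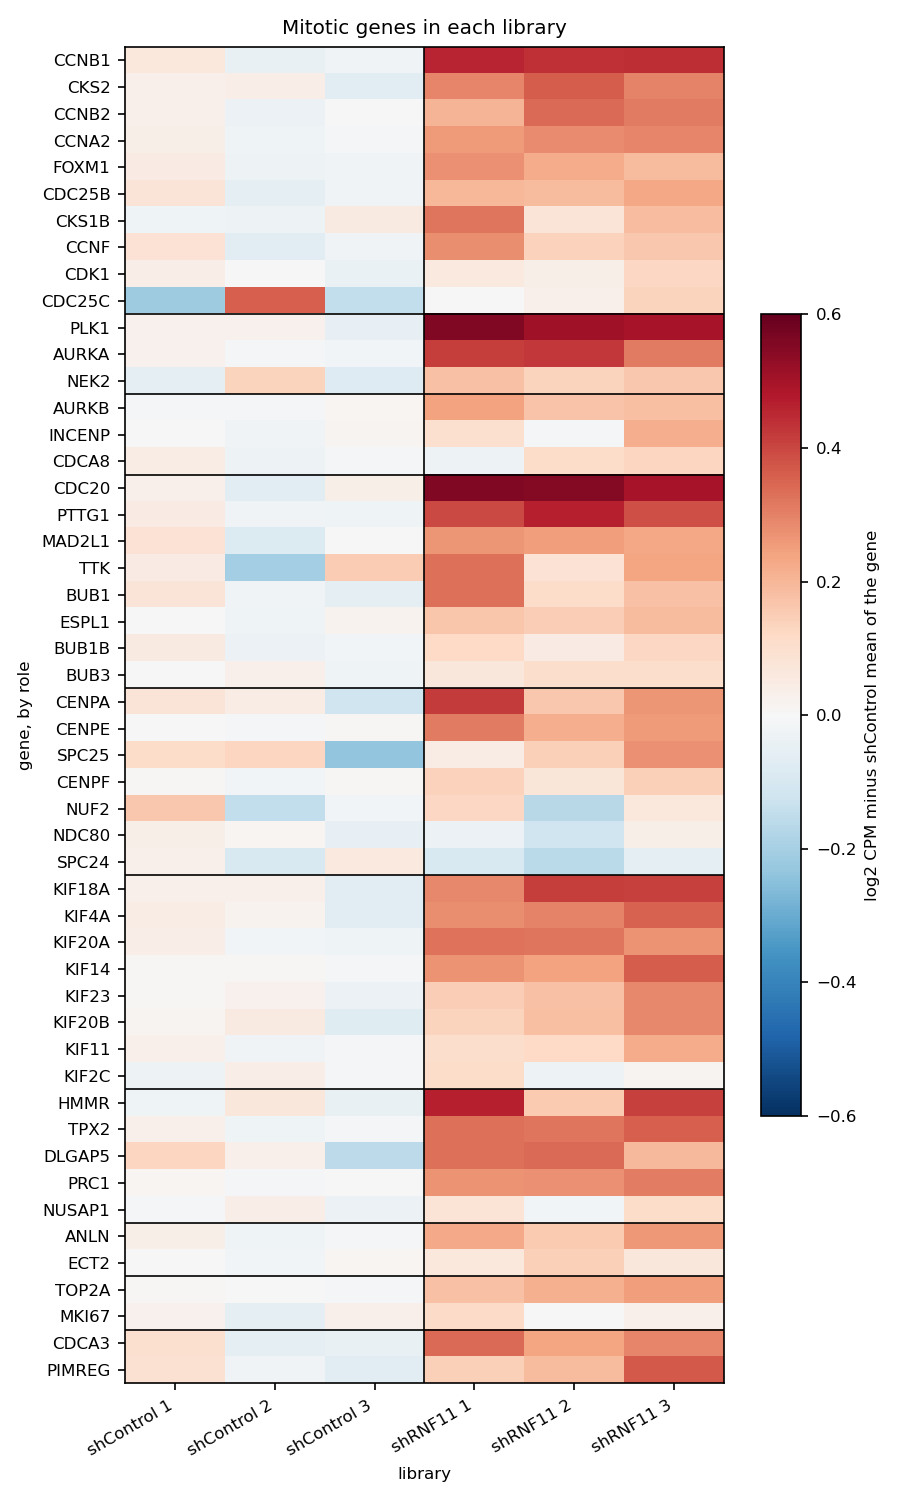
Level of each mitotic gene (rows, grouped by role) in each of the 6 libraries (columns), as log2 CPM minus the gene's mean over the 3 shControl libraries. The shRNF11 columns are red for most rows, deepest for CDC20, PLK1 and CCNB1, while the rows of CDK1, KIF2C, NUF2, NDC80, SPC24 and MKI67 stay pale or turn light blue.

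The chromosomal passenger complex, which corrects faulty attachments and later guides cytokinesis, had 3 members in the set, of which its kinase passed the test. AURKB (Entrez 9212), Aurora B, stood at 93.7, 93.8 and 94.8 CPM in the shControl libraries and 111, 106 and 107 CPM in the shRNF11 libraries. The shRNF11 values all exceeded the shControl values, and the rise was 1.15-fold (log2 fold change 0.20, SE 0.0386, edgeR adjusted p = 5.53e-05). INCENP, the scaffold of the complex, had 77.8 ± 6.07 CPM against 72.5 ± 0.902 CPM (adjusted p = 0.0815), and CDCA8, borealin, 80.3 ± 4.77 CPM against 76.5 ± 2.03 CPM (adjusted p = 0.229). Neither passed with all 6 libraries, and each passed when 1 was left out: INCENP without shRNF11 replicate 2 (adjusted p = 0.0143) and CDCA8 without shRNF11 replicate 1 (0.0411). BIRC5, survivin, the fourth subunit of the complex and not a member of the set, was 1.37-fold higher at 169 ± 2.77 CPM against 123 ± 2.50 CPM (adjusted p = 1.4e-15).

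Of 7 kinetochore genes, 3 rose and 4 did not pass (median log2 fold change 0.12). CENPE (Entrez 1062), a kinesin that carries chromosomes to the spindle equator, stood at 28.2, 28.0 and 28.3 CPM in the shControl libraries and 35.0, 32.8 and 33.6 CPM in the shRNF11 libraries. The 3 shControl values were nearly equal and all lay below shRNF11, and the rise was 1.20-fold (log2 fold change 0.26, SE 0.0618, edgeR adjusted p = 0.000772). CENPA, the histone variant that marks centromeres, was 1.22-fold higher (adjusted p = 0.00844), a call lost without shControl replicate 3 (0.0753) or without shRNF11 replicate 1 (0.0841). CENPF, a large protein of the outer kinetochore, was 1.09-fold higher, a call lost with totals alone (adjusted p = 0.15) and after cyclic loess scaling (0.271). The 4 genes of the NDC80 complex, the rod that grips the microtubule, were the 4 that did not pass. Their levels in shRNF11 against shControl were 27.3 ± 1.46 CPM against 28.1 ± 0.842 CPM for NDC80 (log2 fold change -0.041, SE 0.0665). For NUF2 they were 20.6 ± 2.14 CPM against 20.5 ± 2.21 CPM (log2 fold change 0.0062, SE 0.0835). SPC25 had 20.8 ± 1.67 CPM against 18.8 ± 2.57 CPM (log2 fold change 0.15, SE 0.0859), and SPC24 28.6 ± 1.10 CPM against 30.7 ± 1.66 CPM (log2 fold change -0.10, SE 0.0646). All 4 overlapped between groups. SPC24 was called lower when libraries were scaled by totals alone (log2 fold change -0.17, adjusted p = 0.041).

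Of 8 mitotic kinesins, motors that build and move the spindle, 7 rose and 0 fell (median log2 fold change 0.25). KIF18A (Entrez 81930), which damps chromosome movements at microtubule ends, stood at 13.2, 13.2 and 12.3 CPM in the shControl libraries and 15.8, 17.2 and 17.1 CPM in the shRNF11 libraries. The groups did not overlap, and the rise was 1.29-fold (log2 fold change 0.37, SE 0.0906, edgeR adjusted p = 0.00108). KIF20A (Entrez 10112), a kinesin of the central spindle, had the smallest p of the group and stood at 92.8, 89.2 and 88.8 CPM in the shControl libraries and 113, 113 and 109 CPM in the shRNF11 libraries. It was 1.23-fold higher in shRNF11 with no overlap (log2 fold change 0.30, SE 0.0389, edgeR adjusted p = 1.18e-08). KIF4A, which acts on chromosome arms and the central spindle, was 1.24-fold higher, and KIF4B, a near-identical copy to which reads can be misassigned, had 201 reads over the 6 libraries. KIF14, a motor of cytokinesis, was 1.22-fold higher, KIF23, the motor of the centralspindlin complex, 1.15-fold, and KIF20B, a kinesin of late cytokinesis, 1.15-fold. The antisense genes KIF23-AS1 and PRC1-AS1, whose reads cannot be told from those of KIF23 and PRC1 without a strand setting, had 441 and 89 reads over the 6 libraries. KIF11, the motor that pushes spindle poles apart, was 1.11-fold higher, a call lost with totals alone (adjusted p = 0.078). KIF2C, which takes microtubules apart at the centromere, had 93.5 ± 4.54 CPM against 91.4 ± 2.18 CPM and did not pass (adjusted p = 0.583).

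Genes of spindle assembly rose in 4 of 5 cases. TPX2 (Entrez 22974), which nucleates microtubules near chromosomes and activates Aurora A, stood at 215, 207 and 209.8 CPM in the shControl libraries and 265, 263 and 270.1 CPM in the shRNF11 libraries. All shRNF11 libraries were above all shControl libraries, and the rise was 1.26-fold (log2 fold change 0.34, SE 0.0301, edgeR adjusted p = 3.98e-13). HMMR (Entrez 3161), a spindle protein that also binds hyaluronan, stood at 17.5, 18.7 and 17.3 CPM in the shControl libraries and 24.6, 19.9 and 23.7 CPM in the shRNF11 libraries. Replicate 2 of shRNF11 lay just above the highest shControl library and the other two well above it, and the rise was 1.27-fold (log2 fold change 0.35, SE 0.0814, edgeR adjusted p = 0.000619). DLGAP5, a protein of the fibres that pull on kinetochores, was 1.22-fold higher, and PRC1, which bundles the microtubules of the central spindle, 1.22-fold. NUSAP1, a microtubule-bundling protein, had 124 ± 5.60 CPM against 119 ± 3.05 CPM and did not pass (adjusted p = 0.249).

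At the end of mitosis, ANLN (Entrez 54443), anillin, the scaffold of the cleavage furrow, stood at 455, 436 and 443 CPM in the shControl libraries and 520.3, 496 and 532 CPM in the shRNF11 libraries. The groups did not overlap, and the rise was 1.16-fold (log2 fold change 0.22, SE 0.0272, edgeR adjusted p = 8.45e-09). ECT2, the exchange factor that switches on RhoA at the furrow, had 114 ± 3.65 CPM against 107 ± 1.09 CPM, without overlap, and just missed the threshold (adjusted p = 0.0549). It passed without shRNF11 replicate 1 (0.0396) and without shRNF11 replicate 3 (0.0352). TOP2A (Entrez 7153), the topoisomerase that untangles chromosomes, stood at 493, 492 and 488 CPM in the shControl libraries and 555, 569.8 and 584 CPM in the shRNF11 libraries. All its shRNF11 values were higher, and the rise was 1.16-fold (log2 fold change 0.21, SE 0.0255, edgeR adjusted p = 2.03e-09). MKI67 (Entrez 4288), the source of the Ki-67 proliferation marker, stood at 559, 527 and 561 CPM in the shControl libraries and 594, 547 and 559.9 CPM in the shRNF11 libraries. Those ranges overlapped, and the log2 difference of 0.047 (SE 0.0278, edgeR adjusted p = 0.202) did not pass. CDCA3 (Entrez 83461), which helps degrade the CDK1 inhibitor WEE1, stood at 53.2, 47.9 and 48.2 CPM in the shControl libraries and 62.9, 58.6 and 61.0 CPM in the shRNF11 libraries. It was 1.22-fold higher with no overlap (log2 fold change 0.29, SE 0.0506, edgeR adjusted p = 8.7e-06). PIMREG, a mitotic regulator first known as a partner of CALM, was 1.18-fold higher (adjusted p = 0.0221), a call lost with totals alone (0.1), without shControl replicate 2 (0.0621), without shControl replicate 3 (0.102) or without shRNF11 replicate 3 (0.155).

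Unequal change within the set can be read from ratios of reads within a library, which no scaling factor enters. The pairs were chosen after the values were seen, so the ratios are given without a test. Per 100 reads of CDK1, the shControl libraries held 113, 108 and 113 reads of CCNB1 and the shRNF11 libraries 147, 148 and 139. That ratio was 29.6% higher in shRNF11 with no overlap, and those of CCNA2 and CCNB2 to CDK1 were 15.4% and 15.9% higher, also with no overlap. Securin gained on separase: per 100 reads of ESPL1 there were 77.5 ± 2.50 reads of PTTG1 in shControl and 92.1 ± 4.03 in shRNF11 (SD, n = 3 each), without overlap. CENPA gained on NDC80 by 25.3% and PLK1 on MKI67 by 38.7%, each without overlap. Between TPX2 and its partner AURKA (a change of -3.13%) and between AURKB and INCENP (7.17%), the groups overlapped.

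**Figure D3:**
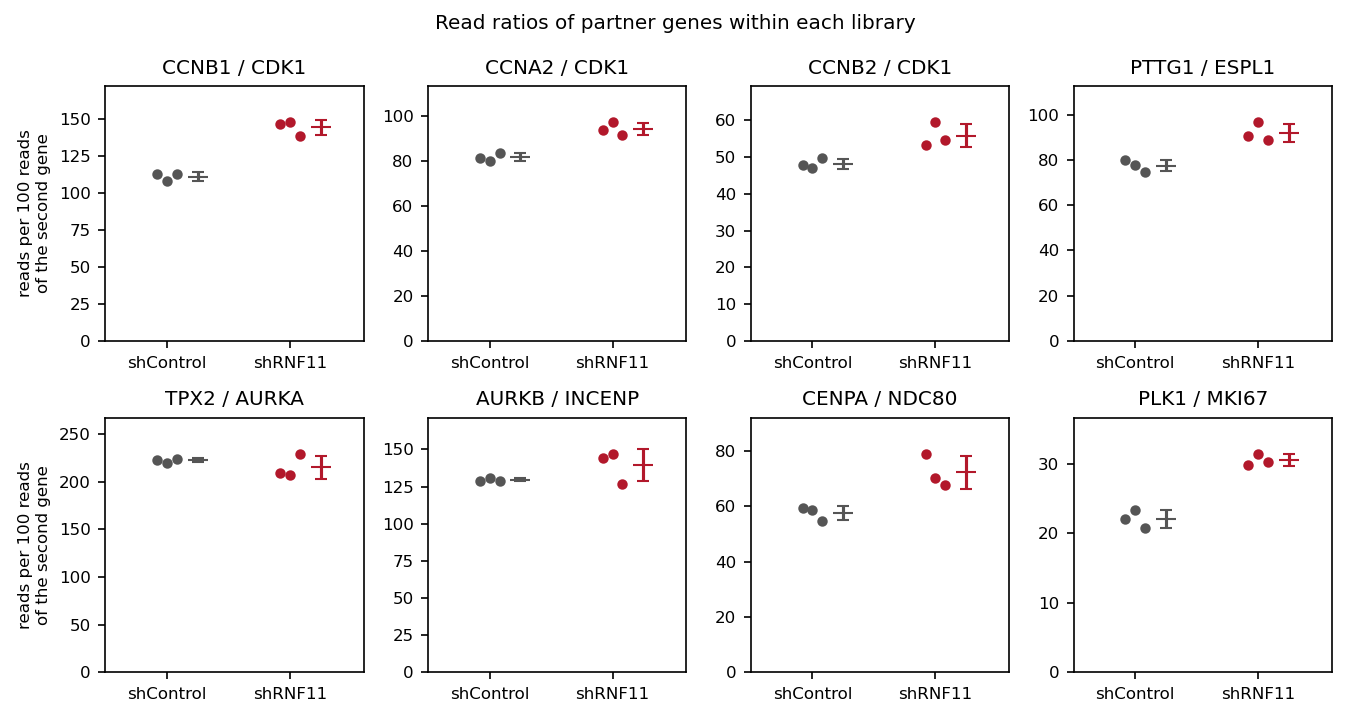
Reads of one mitotic gene per 100 reads of another in the same library, for 8 pairs (points are libraries, bars the mean and SD, n = 3 per group; every axis starts at 0). The ratios to CDK1, ESPL1, NDC80 and MKI67 are higher in all shRNF11 libraries, and those of TPX2 to AURKA and AURKB to INCENP overlap between groups.

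Fold changes over all genes tended to be higher where abundance was higher, and the mitotic genes were well expressed (median 87.1 CPM, against 25.2 CPM over all tested genes). The mitotic genes were therefore set beside all genes of like abundance, in 5 equal bins. In the bin of highest expression, 20 of 25 mitotic genes were higher, beside 42.8% of all genes there, with medians of 0.21 and 0.065 on the log2 scale. In the next bin, 13 of 15 were higher, beside 21.2%, with medians of 0.21 and 0.0060. The middle bin held 8 of the set, 4 of them higher, beside 13.4% of all its genes, and the bin below it 2, of which KIF18A was higher. Across the 50 genes, fold change and mean level were nearly unrelated (Spearman rho 0.051, as a description over genes measured in the same libraries), while over all 13489 tested genes rho was 0.25. After cyclic loess scaling, which removes a shift that follows abundance, 35 of the 50 remained called higher, 0 were lower, and the median was 0.18. Of all genes called under that scaling 50.5% were higher, compared with 54.2% in the main fit.

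**Figure D4:**
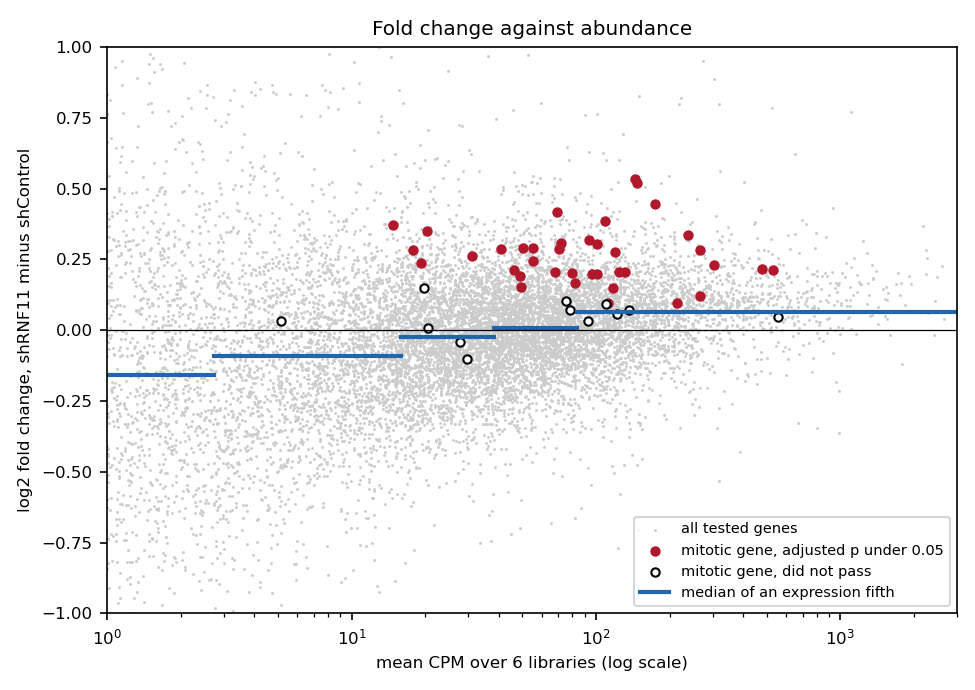
Log2 fold change (shRNF11 minus shControl) against mean CPM over the 6 libraries (log scale) for all tested genes (grey) and the 50 mitotic genes (red where the adjusted p was under 0.05, open where not), with the median of each of 5 expression bins in blue; 1734 genes lie outside the plotted range. The red points lie above the blue line of their bin, and the open points include CDC25C at the far left and MKI67 at the right.

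Beyond the set, 125 other genes of mitosis were described in 7 lists. Of these, 40 were higher and 10 lower (32% and 8%), beside 17.4% and 14.7% of all tested genes, with a median log2 fold change of 0.065, and with totals alone 21 were higher and 21 lower. The lists had a median level of 61 CPM, between the medians of the next bin of abundance (55.2 CPM) and of the highest (148 CPM). In these bins 21.2% and 42.8% of genes were higher, and the 32% lay between those shares. The 8% lower was below the 17.6% and 12.9% lower in the same bins, a difference that was not tested. Some of the 125 genes lay in lower bins, where 13.4% and 6.3% of all genes were higher, so comparison by the median is only a rough match. The median log2 fold change of the highest bin was 0.065. Other kinetochore and checkpoint genes had 8 of 20 higher and 2 lower (median 0.11): BIRC5, SGO2, a protector of centromeric cohesion, at 1.32-fold, and KNSTRN, a spindle protein, at 1.23-fold were higher, and MIS12 (1.15-fold) and SKA2 (1.11-fold), both parts of the outer kinetochore, were lower. Of 23 other spindle, centrosome and cytokinesis genes, 9 were higher and 1 lower (median 0.11), with the kinesin KIF18B 1.17-fold, RACGAP1, the partner of KIF23, 1.12-fold and RHOA 1.12-fold higher, and NUMA1, a spindle pole protein, 1.14-fold lower. With totals alone this list had 5 higher and 2 lower. Of 18 condensin and cohesin genes, 5 were higher and 0 lower (median 0.055), among them the condensin subunits SMC4 (1.17-fold) and NCAPG (1.14-fold) and the cohesin protector CDCA5, sororin (1.12-fold). With totals alone and after cyclic loess scaling, 3 of these 18 were higher and 2 lower. The centromere-bound list had 4 of 18 higher and 2 lower (median 0.061), with CENPI (1.21-fold) and HJURP, the chaperone of CENPA (1.11-fold), higher and CENPP (1.29-fold) and CENPN (1.08-fold) lower. With totals alone 1 gene of this list was higher and 3 were lower. The count of lower genes became 1 in this list without shControl replicate 1 or 2 or shRNF11 replicate 1 or 3, and 1 in the kinetochore list without shControl replicate 1 or shRNF11 replicate 1.

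Each list of regulators around these genes had calls in both directions. Of all tested genes 17.4% were higher and 14.7% lower, and 21.2% and 17.6% in the bin with a median of 55.2 CPM. The APC/C, entry and exit, and DREAM lists had medians of 57.2, 53.2 and 44.7 CPM. No list was tested against these shares. In the APC/C list 5 of 18 were higher and 1 lower (27.8% and 5.56%, median log2 fold change 0.0051). Its count of lower genes was 6 with totals alone, 4 after cyclic loess scaling, and 3 with upper-quartile factors or a filter at a mean of 5 CPM. The enzymes that feed ubiquitin to the complex were higher, UBE2C 1.29-fold at 101 ± 3.22 CPM against 78.3 ± 1.86 CPM and UBE2S 1.20-fold, as was the subunit ANAPC1 (1.11-fold), while the subunit ANAPC13 was 1.13-fold lower. In the list of entry and exit control 5 of 14 were higher and 1 lower (35.7% and 7.14%, median 0.074). The phosphatase subunits PPP1CC and PPP2R2A were 1.26-fold and 1.14-fold higher, and WEE1, the kinase that restrains CDK1, was 1.15-fold lower at 36.3 ± 2.56 CPM against 41.9 ± 1.62 CPM. Among 14 genes of the DREAM and MYB-MuvB complexes and of the CCAAT-binding factor NF-Y, 4 were higher and 3 lower (28.6% and 21.4%, median 0.048). MYBL2, which encodes B-MYB, was 1.10-fold higher. Also higher were LIN54, the DNA-binding MuvB subunit (1.16-fold), TFDP1, the partner of E2F factors (1.07-fold), and NFYA, a subunit of NF-Y (1.09-fold). LIN54, TFDP1 and NFYA were named after their values were seen. Lower were the pocket proteins RBL1 (1.25-fold, 48.7 ± 3.29 CPM against 60.6 ± 0.892 CPM) and RBL2 (1.13-fold), which belong to the repressing form, and RBBP4 (1.15-fold), a MuvB subunit shared by the repressing and activating forms. E2F4 and E2F5, the repressor E2Fs of DREAM, did not pass. With totals alone, 0 of these 14 were called higher and 4 lower, and 2 were higher after cyclic loess scaling or without shControl replicate 1 or 3. Without shRNF11 replicate 1, the calls on ANAPC13 and WEE1 were lost. The entry and exit list had 2 genes higher with totals alone, with upper-quartile factors or without shRNF11 replicate 2, and 3 with the filter at a mean of 5 CPM or without shControl replicate 2 or 3. Genes outside the set whose annotation in the table names mitotic cell cycle, cell division, spindle or chromosome segregation terms, a list made after the data were seen, had 202 of 869 tested higher (23.2%) and 122 lower (14.0%), shares near the 17.4% and 14.7% of all tested genes and the 21.2% higher in the bin of like abundance.

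DNA replication and S-phase genes, the neighbouring step of the cycle, were lower more often than higher. Of 35, 8 were higher and 14 lower (22.9% and 40%, median log2 fold change -0.052), beside 17.4% and 14.7% of all tested genes. The list had a median level of 137 CPM. In the bin of highest expression, with a median of 148 CPM, 42.8% of all genes were higher and 12.9% lower. The lower S-phase genes outnumbered the higher ones under each of the 4 other scalings as well. The difference from the mitotic set was not tested. Higher were TK1, thymidine kinase (1.24-fold), TYMS, thymidylate synthase (1.15-fold), the helicase subunit MCM6 (1.16-fold), CDC45, POLD1, ORC6, POLA1 and GINS3. Among the lower genes were the helicase subunits MCM3 (1.07-fold), MCM4 (1.07-fold), MCM5 (1.08-fold) and MCM7 (1.05-fold), and the licensing factors CDC6 (1.06-fold) and CDT1 (1.125-fold). Lower too were the sliding clamp PCNA (1.08-fold), FEN1 (1.07-fold), RRM2 (1.08-fold) and E2F2 (1.28-fold). The transcription factor E2F1 was 1.23-fold lower (47.8 ± 2.39 CPM against 58.6 ± 1.30 CPM). Of the E-type cyclins, CCNE1 was 1.48-fold lower (9.905 ± 0.462 CPM against 14.62 ± 0.701 CPM) and CCNE2 1.21-fold. All these lower genes were named after their values were seen. Per 1000 reads of the 35 S-phase genes, the shControl libraries held 757.3, 740.5 and 745.5 reads of the 50 mitotic genes and the shRNF11 libraries 883.3, 866.5 and 885.4. This ratio needs no scaling factor, was 17.5% higher in shRNF11 and did not overlap between groups. The summed CPM of the mitotic genes was by itself 1.16 times as high, so the ratio largely restates their rise.

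The last list held G1 cyclins, the kinases CDK4 and CDK6, and inhibitors of cyclin-dependent kinases. Of 11 tested, 5 were higher and 1 lower (45.5% and 9.09%, median log2 fold change 0.11), beside 17.4% and 14.7% of all tested genes. The list had a median level of 56.7 CPM. In the bins of abundance with medians of 55.2 and 148 CPM, 21.2% and 42.8% of all genes were higher. The difference from these shares was not tested. The count of lower genes was 3 with totals alone and 2 without shRNF11 replicate 2. CCND1, cyclin D1, was 1.38-fold higher at 301 ± 0.734 CPM against 219 ± 4.34 CPM, and CDKN1A, the inhibitor p21, 1.51-fold lower at 39.4 ± 2.86 CPM against 59.7 ± 2.03 CPM. CDKN1C, the inhibitor p57, went the other way from CDKN1A and was 2.97-fold higher at 30.1 ± 3.79 CPM against 10.1 ± 1.24 CPM. CDKN2A, named after its values were seen, was 1.20-fold higher. CDKN1A was the only inhibitor of the list called lower, and the remaining inhibitors did not pass. All means are over n = 3 libraries with their SD, and the adjusted p (edgeR) of CCND1, CDKN1A and CDKN1C was at most 4.45e-13.

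**Figure D5:**
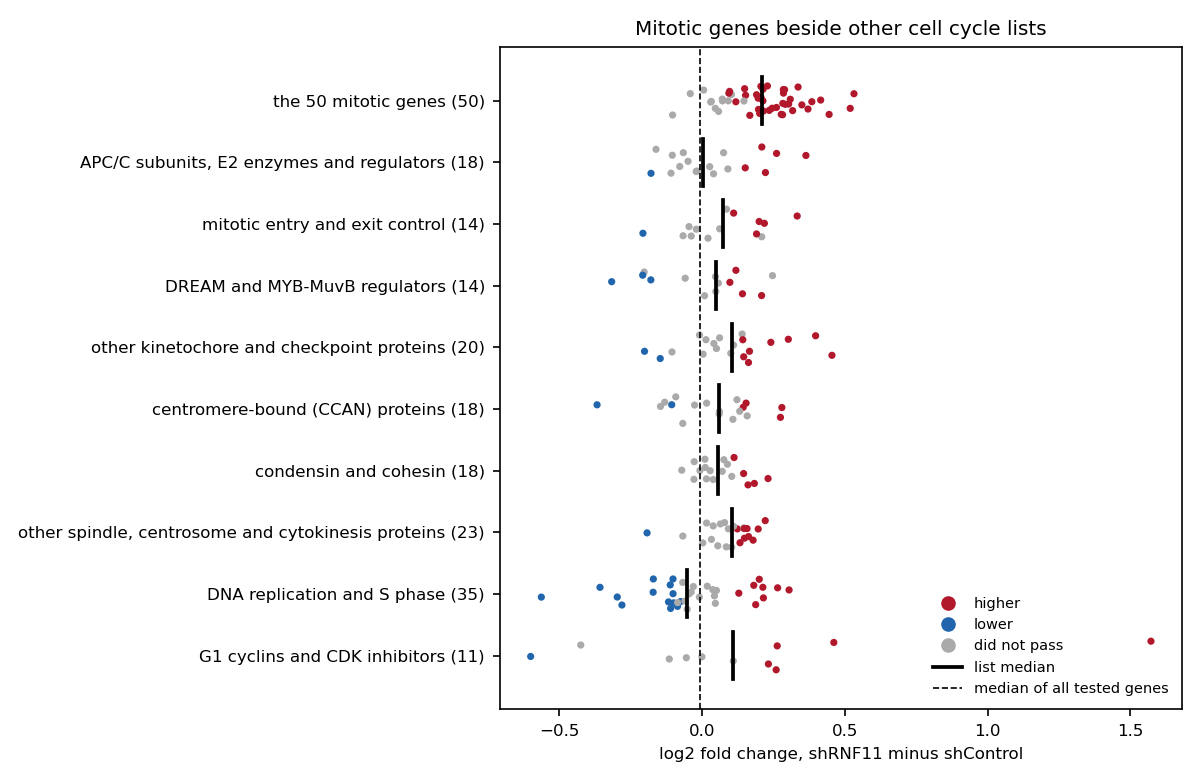
Log2 fold changes (shRNF11 minus shControl) of the 50 mitotic genes and of 9 other cell cycle lists (number tested in brackets), one point per gene, coloured by call, with list medians as black bars and the median of all tested genes dashed. The median of the mitotic genes is 0.21 with no gene called lower, and that of the replication list is -0.052 with 14 called lower.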

How the data were processed

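The data are raw read counts per gene, as deposited by the authors in 1 table of 6 libraries and 20499 genes. The submitters' processing notes list fastp, HISAT2 and HTSeq. For version, genome build, annotation and strand setting they are silent (not given in the sources used here), so antisense partners such as KIF23-AS1 cannot be told apart from the genes opposite. All 6 count columns were used and 0 rows named no gene.

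Genes were kept with filterByExpr (minimum count of 10), scaled by TMM and fitted with the quasi-likelihood test of edgeR 4.0.16 under R 4.3.3. Group was the only term, with Benjamini-Hochberg adjustment over all 13489 tested genes. A standard error is the log2 fold change over the root of F. The common biological coefficient of variation was 4.82%. The fit was tested on simulated data. The mean chi-square statistic per gene was 3.79 to 5.85 between replicates of a group and 21.4 to 23.8 between groups, so no library was a duplicate of another. The members and the gene lists were chosen with earlier results of these data known. CDK1, CCNB1, the 8 members with the largest change and the smallest p of each role are given in every library; of each other list, up to 3 genes with the smallest p and those against its majority are named. Outside this rule, MKI67 in every library, the lower S-phase genes, and LIN54, TFDP1, NFYA, E2F4, E2F5 and CDKN2A were named after their values were seen. Alternatives used DESeq2 1.42.0, limma 3.58.1, other scalings and filters. Replicate numbers gave no pairing: deviations of same-numbered libraries correlated by -0.0159 to -0.00586. Promoter motifs were not searched, because the tables at hand are of mouse.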

Additional observations from a re-analysis of the deposited data

How the results depend on the processing

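The count of 38 mitotic genes higher and 0 lower was 30 to 38 and 0 or 1 under other scalings, filters and tests, apart from the test against a 1.5-fold change, which called 0 of them, 0 higher and 0 lower of the 125 other mitosis genes, and 55 higher and 29 lower of all genes. Totals alone gave 30 higher and 1 lower with a median of 0.15, 21 higher and 21 lower of the 125, and 1335 higher and 3255 lower of all genes, so 29.1% of called genes were higher compared with 54.2%. Cyclic loess left 33 higher and 16 lower of the 125. Leaving out 1 library at a time gave 33 to 39 mitotic genes higher, medians of 0.21 to 0.24 and 6 to 10 of the 125 lower. With the replicate number as a block, 38 were higher, 0 lower, the median was 0.21 and no member's call changed; the numbers did not pair the samples. The cause of these shifts was not tested. No member reversed its direction with a call in any alternative. Depth limited CDC25C most, with a standard error of 0.158 on the log2 scale.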
